A study of Homo sapiens with 8 samples.

Results

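The serpin family was examined in HepG2 cells treated with EZH1/2 inhibitors. Members were chosen as genes whose symbol is SERPIN followed by a clade letter from A to I and a number, and 24 such genes are described, out of 25603 genes analysed. They comprised 15 genes of the secreted clades A, C, D, F and G, 5 genes of the intracellular clade B, and 4 genes of clades E, H and I. HepG2 is an established human hepatic cell line, so that the results describe a single line. Cells of the EZHi group received UNC1999 and valemetostat tosylate (written Valmetostat Tosylate in the sample labels), each at 1 µM, for 4 days, and cells of the vehicle group received DMSO for the same time, at 0.2% by the sample labels and at a lower concentration by the culture methods of the study. Both groups were grown on gelatin in a medium with serum, insulin and dexamethasone. RNA-seq was performed on 4 libraries per group, numbered 1 to 4 in each and described by the study as independent biological replicates.

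Serpins share a fold with an exposed reactive loop. Inhibitory members present this loop as bait to a protease, which is trapped in a covalent complex after cleavage. Hepatocytes secrete many of them into plasma, where they restrain coagulation, fibrinolysis, the complement cascade and leukocyte proteases. Some family members inhibit no protease and instead carry hormones or assist collagen folding. Clade B serpins lack a cleaved signal peptide and mostly stay inside the cell. The inhibited enzymes, EZH1 and EZH2, are the catalytic subunits of PRC2, a polycomb complex that methylates lysine 27 of histone H3 and is often found at repressed promoters rich in CpG.

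Values are length-corrected log2 expression as deposited, called log2 values hereafter, and levels are also given as estimated FPKM on a linear scale. Two-sided limma tests were run over the 20153 genes averaging 0.1 estimated FPKM or more, and genes with a Benjamini-Hochberg adjusted p under 0.05 are described as called. Equally numbered libraries deviated together in the 2 groups, most weakly those of replicate 4. A fit with the replicate number as a block is given beside a result where it changed the call, and for some other members. The 9 hepatocyte markers averaged from 156 (FGB) to 16199 (AFP) estimated FPKM over all libraries. Among cholangiocyte and leukocyte markers, KRT19, EPCAM, SOX9 and LYZ were also abundant, at 414, 179, 84.4 and 1424 estimated FPKM. KRT7, CD14 and CD3E of these lists were low, at 0.75, 0.98 and 0.059. Of 9 hepatocyte markers tested, FGB was called higher in EZHi, and under the block FGB, FGA, APOB and APOA1 were called higher and ALB lower. For the marker calls given here, the shares over all genes tested were 13.1% called without the block and 30.0% with it. The 4 cholangiocyte markers gave no call by limma (0 at an unadjusted p under 0.05), and SOX9 was called higher under the block (limma adjusted p 0.0156). KRT6A and TP63, the squamous markers analysed, averaged 0.025 and 0.012 estimated FPKM. Of 3 endothelial markers tested, CDH5 and VWF were called higher, and the sum of the list went from 2.26 to 2.72 estimated FPKM in vehicle to 3.42 to 7.21 in EZHi. PDGFRA was called higher among 3 stromal markers tested, while CD14 and LYZ, the leukocyte markers tested, were not called by limma (0 at an unadjusted p under 0.05). Whether such markers have a part in the serpin results was not tested, and in bulk RNA fewer cells of a type and less RNA per cell cannot be told apart. EZH1 and EZH2 transcripts differed by -0.07 and -0.06 on the log2 scale (limma adjusted p 0.573 and 0.806).

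Levels of the family members spanned a wide range. SERPINA1, which encodes the elastase inhibitor α1-antitrypsin, was the highest, with 1333 ± 239 (SD, n = 4) estimated FPKM under vehicle and 1487 ± 277 (SD, n = 4) under EZHi. SERPINF1, encoding the secreted factor PEDF, followed with 583 ± 67.9 (SD, n = 4) and 795 ± 91.3 (SD, n = 4). SERPINA5 (protein C inhibitor) and SERPIND1 (heparin cofactor II) had means over all libraries of 370 and 270 estimated FPKM. SERPINA7, SERPINB1 and SERPINH1 lay close together at 110, 109 and 105 estimated FPKM, and did not differ beyond their spread. Secreted members ranged widely, with SERPINA10 and SERPINA9 at 0.48 and 0.18 estimated FPKM. SERPINB5 (maspin), an epithelial serpin, was at 0.026 and SERPINE3 at 0.091 estimated FPKM, both under the filter, so that 22 of the 24 members were tested.

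**Figure D1:**
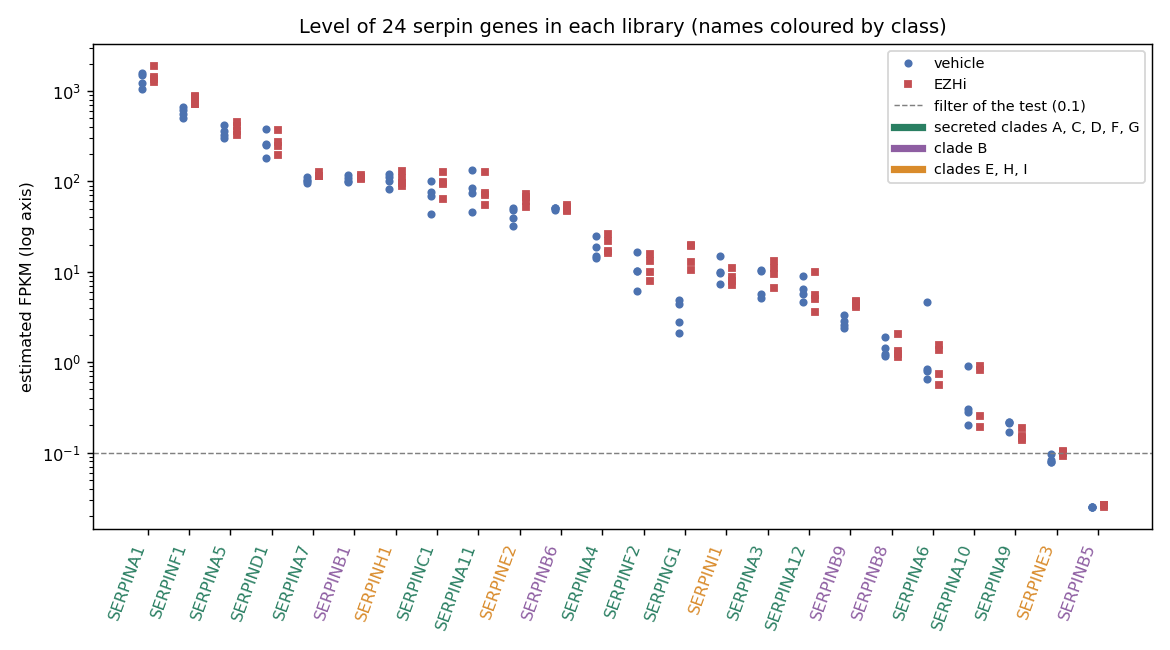
Estimated FPKM (log axis) of the 24 serpin genes in each library, ordered by mean level, with circles for the 4 vehicle libraries, squares for the 4 EZHi libraries and gene names coloured by class. SERPINA1 was the highest gene in all libraries, all squares of SERPING1 lie above its circles, and SERPINE3 and SERPINB5 have means under the filter of 0.1.

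In the main comparison, 4 of the 22 members tested were called (18.2%), all of them higher in EZHi, against 13.1% of all genes tested. These were SERPING1, SERPINF1, SERPINB9 and SERPINE2. The background was 8.85% for genes called higher and 4.27% for genes called lower. The groups did not overlap for 5 members (22.7%), namely these 4 and SERPINA7, against 18.6% of all genes (10.7% higher and 7.93% lower). With the replicate block, 9 members were called (40.9%), 8 higher and 1 lower, against 30.0% of all genes (14.9% higher and 15.1% lower). The members added by the block were SERPINC1, SERPINA3, SERPINA4 and SERPINA7, which were higher, and SERPINA9, which was lower. The number of members called ranged from 2 to 4 when single libraries were left out, with the lowest number reached when either vehicle replicate 1 or EZHi replicate 4 was missing. Of all genes, 9.91% and 8.99% were called in these fits, in that order, against 13.1% in the main fit. Centring the libraries on genes of at least 10 estimated FPKM gave 5 members called higher and 0 lower, while over all genes it moved the calls from 1784 higher and 860 lower to 2550 higher and 319 lower.

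**Figure D2:**
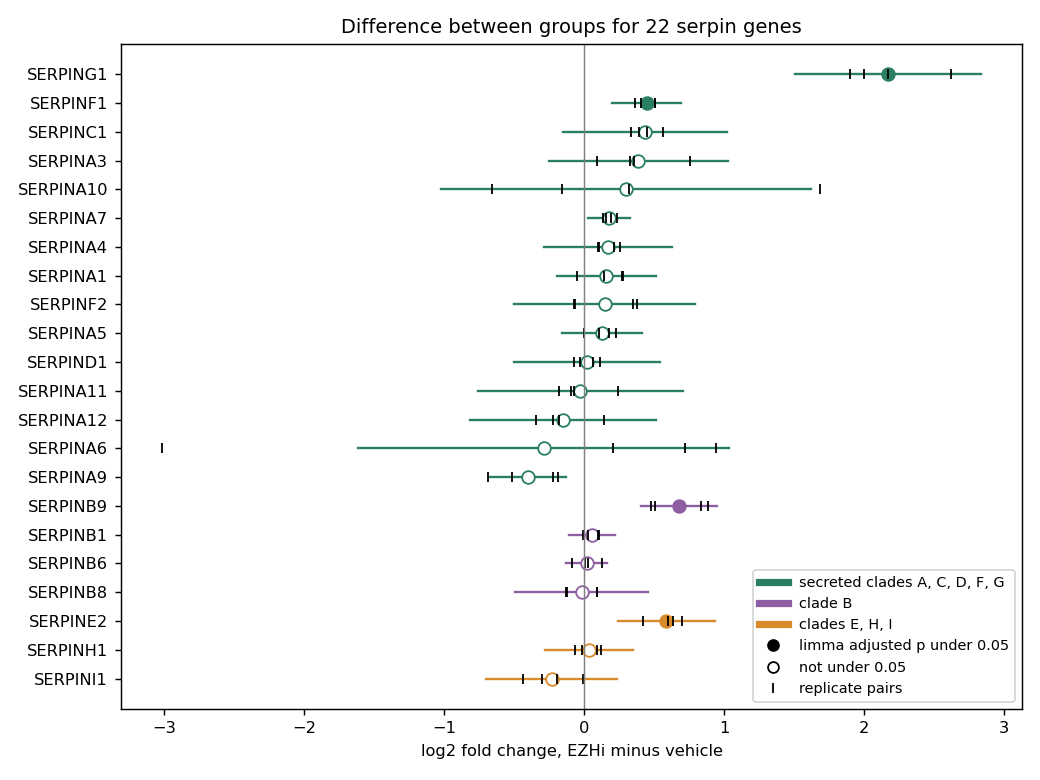
Log2 fold change (EZHi minus vehicle) of the 22 serpin genes tested, with the limma estimate as a circle, its 95% confidence interval as a line and the differences of the 4 replicate pairs as ticks. SERPING1 rose by 2.17, SERPINA9 had the lowest value at -0.40, and filled circles mark the 4 called genes.

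The largest difference of the family was that of SERPING1 (ENSG00000149131, GRCh38 chromosome 11, 57597387 to 57619171, plus strand, protein-coding). It encodes the C1 inhibitor, which inactivates the proteases that start the classical and lectin complement pathways, as well as plasma kallikrein. Its log2 values were 6.16, 5.75, 6.83 and 6.97 in vehicle replicates 1 to 4, and 8.05, 8.38, 8.99 and 8.97 in the EZHi replicates. Every EZHi library lay above every vehicle library. SERPING1 rose by 2.17 on the log2 scale (SE 0.30, limma adjusted p 0.00104), which is a 4.51-fold higher level. In estimated FPKM the level went from 3.55 ± 1.32 (SD, n = 4) to 15.7 ± 4.76 (SD, n = 4), so that a gene of low rank in vehicle remained far below the main secreted serpins. The rise was present in 4 of 4 pairs, from 1.90 to 2.62, and leaving out single libraries moved it between 1.95 and 2.35 with the call kept in 8 of 8 fits.

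The proteases and partners of serpins were examined next. Of 26 genes tested in this list, 3 were called higher and 0 lower (11.5%, near the 13.1% of all genes), and these were C1R, C1S and MASP1. C1R and C1S form the protease unit of the first complement component, and MASP1 is a protease of the lectin pathway. C1R had a mean log2 value of 6.21 ± 0.18 (SD, n = 4) under vehicle and 7.17 ± 0.13 (SD, n = 4) under EZHi, and rose by 0.96 (limma adjusted p 0.000452). For C1S these means were 7.36 ± 0.30 (SD, n = 4) and 8.03 ± 0.11 (SD, n = 4), a rise of 0.67 (limma adjusted p 0.0119). MASP1 averaged 0.086 estimated FPKM in vehicle and 0.19 in EZHi, so that it passed the filter of 0.1 only through the EZHi group, and its log2 fold change of 1.07 is no support for the list. Of the 3 genes called, 2 averaged at least 1 estimated FPKM. MASP2, the other lectin pathway protease of the list, was more abundant at 10.6 estimated FPKM and changed by -0.04 (limma adjusted p 0.878), and is named after its value was seen. The median log2 fold change of the list was 0.19, against -0.0077 over all genes tested. Under the block, 11 genes of the list were called higher and 2 lower (50.0%), against 30.0% of all genes. The latter, named after their values were seen, were VTN (-0.35, limma adjusted p 0.00102), which encodes the plasma protein vitronectin, and F7 (-0.25, limma adjusted p 0.0411). Beside C1R, C1S and MASP1, the genes called higher with the largest changes were TMPRSS6, F12 and ST14. They rose by 0.69, 0.60 and 0.50 (limma adjusted p with the block 0.000486, 0.0134 and 0.0175).

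Members acting on thrombin and the fibrinolytic system were then considered. SERPINE2 (ENSG00000135919, chromosome 2, 223975045 to 224039318, minus strand) encodes protease nexin, a cell-associated inhibitor of thrombin and plasminogen activators. Its log2 values were 9.67, 10.28, 9.97 and 10.34 in vehicle, and 10.37, 10.87, 10.61 and 10.76 in EZHi. All EZHi libraries were above all vehicle libraries, by a narrow margin between vehicle replicate 4 and EZHi replicate 1. SERPINE2 rose by 0.59 on the log2 scale (SE 0.16, limma adjusted p 0.0348), in 4 of 4 pairs. Its call was lost without vehicle replicate 1 (limma adjusted p 0.0724), vehicle replicate 3 (0.0698), EZHi replicate 2 (0.0837), EZHi replicate 3 (0.0627) or EZHi replicate 4 (0.102), and when no filter on low values was applied (0.0524). SERPINF2 (α2-antiplasmin, the plasmin inhibitor) changed by 0.15 with an interval from -0.50 to 0.79 (limma adjusted p 0.809), and SERPINI1 (neuroserpin) by -0.23 with an interval from -0.70 to 0.23 (limma adjusted p 0.538), although the latter was lower in 4 of 4 pairs. With the replicate block the interval of SERPINI1 was -0.41 to -0.06, and it was not called (limma adjusted p 0.0516).

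**Figure D3:**
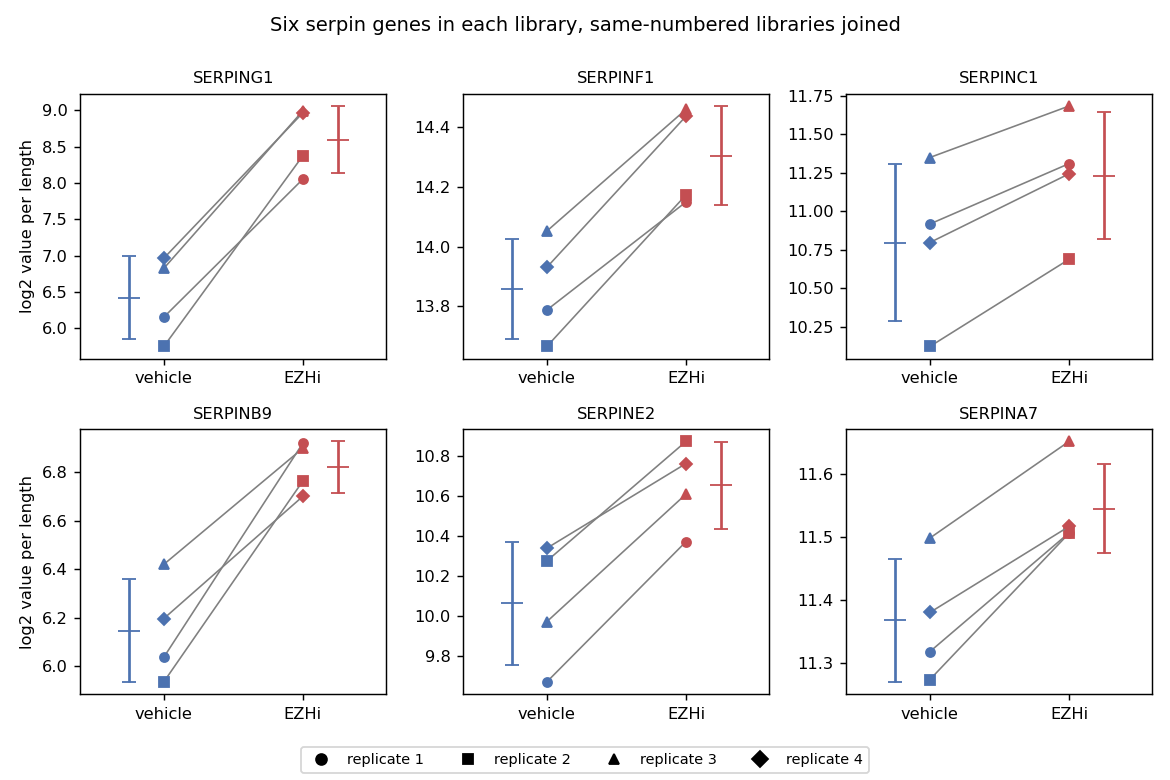
Log2 values of 6 serpin genes in each vehicle and EZHi library, on a scale of its own per panel, with grey lines joining libraries of the same replicate number and bars giving mean ± SD (n = 4) per group. The 4 lines run upward in each panel, and of the 6 genes SERPINC1 alone has groups that overlap.

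SERPINF1 (ENSG00000132386, chromosome 17, 1762029 to 1777565, plus strand) encodes PEDF, a serpin without inhibitory activity known for restraining angiogenesis. Its log2 values were 13.79, 13.67, 14.05 and 13.93 in vehicle, and 14.15, 14.17, 14.46 and 14.44 in EZHi. The groups did not overlap. SERPINF1 rose by 0.45 on the log2 scale (SE 0.11, limma adjusted p 0.0244), and the pairs ranged from 0.36 to 0.51. Leaving out vehicle replicate 1 (limma adjusted p 0.0713), vehicle replicate 2 (0.0597), vehicle replicate 4 (0.0512), EZHi replicate 3 (0.061) or EZHi replicate 4 (0.076) ended the call. The block gave a limma adjusted p of 0.000242. SERPINF2, its neighbour on chromosome 17 (1742836 to 1755265), had a lower level of 11.2 estimated FPKM and was not called.

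Thrombin is also inhibited by 2 abundant liver serpins that bind heparin. SERPINC1 (antithrombin) had log2 values of 10.92, 10.12, 11.35 and 10.80 in vehicle, and 11.31, 10.69, 11.68 and 11.24 in EZHi. The groups overlapped widely, and each EZHi library exceeded the vehicle library of its number by 0.33 to 0.57. Its log2 fold change was 0.43 with an interval from -0.15 to 1.02 (limma adjusted p 0.338), and it was called higher with the replicate block (limma adjusted p 0.000276). SERPIND1 (heparin cofactor II) had log2 values of 12.68, 12.19, 13.24 and 12.71 in vehicle, and 12.61, 12.30, 13.21 and 12.77 in EZHi. It changed by 0.02, with an interval from -0.50 to 0.54, and with pairs on both sides of 0. The interval narrowed to -0.09 to 0.13 with the replicate block, and SERPIND1 was not called (limma adjusted p 0.812). SERPINA10, which restrains activated factor X together with protein Z, was low, with log2 values from 2.38 to 4.54 in vehicle and from 2.29 to 4.54 in EZHi, and was not called (limma adjusted p 0.81).

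On chromosome 14, 9 clade A genes lie within a cluster between 94280460 and 94624055. In order along the chromosome, mean levels were 0.48 estimated FPKM for SERPINA10, 1.39 for SERPINA6, 1410 for SERPINA1, 83.2 for SERPINA11, 0.18 for SERPINA9, 6.21 for SERPINA12, 19.2 for SERPINA4, 370 for SERPINA5 and 8.97 for SERPINA3. Neighbouring genes of the cluster therefore differed greatly in level. None of the 9 was called in the main comparison (1 at an unadjusted p under 0.05), and 5 of 9 had a positive log2 fold change, with a median of 0.13. SERPINA1 had log2 values of 14.94, 14.71, 15.29 and 15.22 in vehicle and 15.08, 14.99, 15.56 and 15.17 in EZHi. Its difference of 0.16 had an interval from -0.19 to 0.51 (limma adjusted p 0.584). The replicate block narrowed this to 0.007 to 0.31, and SERPINA1 was not called (limma adjusted p 0.111). SERPINA5 had log2 values of 13.02, 12.93, 13.40 and 13.18 in vehicle and 13.02, 13.16, 13.51 and 13.36 in EZHi, a difference of 0.13 (limma adjusted p 0.587). Its interval with the block was 0.01 to 0.24, and it was not called (limma adjusted p 0.0919). Under the block with centring on genes of at least 10 estimated FPKM, SERPINA1 and SERPINA5 were called higher (limma adjusted p 0.0121 and 0.00567), and with quantile normalization SERPINA5 was (0.00466).

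With the replicate block, 3 genes of the chromosome 14 cluster were called (33.3%, near the 30.0% of all genes). SERPINA3 (α1-antichymotrypsin, an acute-phase inhibitor of cathepsin G) had log2 values of 7.03, 8.03, 7.17 and 8.08 in vehicle and 7.39, 8.13, 7.92 and 8.41 in EZHi. It was higher in 4 of 4 pairs by 0.09 to 0.76 (limma adjusted p 0.0182 with the block and 0.445 without). SERPINA4 (kallistatin, an inhibitor of tissue kallikrein) had log2 values of 8.58, 8.50, 9.30 and 8.92 in vehicle and 8.68, 8.75, 9.41 and 9.13 in EZHi. It was higher in 4 of 4 pairs by 0.10 to 0.26 (limma adjusted p 0.0401 with the block and 0.668 without). SERPINA9 (centerin), known from germinal centre B cells, was near the lower end of the genes tested, with log2 values of 2.49, 2.11, 2.45 and 2.48 in vehicle and 1.80, 1.89, 2.27 and 1.97 in EZHi. It was lower in 4 of 4 pairs by -0.69 to -0.19 (limma adjusted p 0.0163 with the block and 0.0576 without). Without the block, SERPINA9 was called when vehicle replicate 2 (limma adjusted p 0.023) or EZHi replicate 3 (0.0185) was left out. It was also called lower with quantile normalization (limma adjusted p 0.0143). SERPINA11 and SERPINA12 (vaspin) changed by -0.03 and -0.15 without a call (limma adjusted p 0.975 and 0.81), the former becoming 0.094 with quantile normalization. Exons of SERPINA4 and SERPINA5 overlap in the annotation, and ENSG00000273259 overlaps exons of both SERPINA3 and SERPINA5, so that shared reads cannot be assigned to either gene. Exons of SERPINA9 overlap those of ENSG00000256357 on the opposite strand. The latter was not among the genes analysed, and counting was unstranded.

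Clade A also holds the plasma carriers of hormones. SERPINA7 (thyroxine-binding globulin), on the X chromosome, had log2 values of 11.32, 11.27, 11.50 and 11.38 in vehicle and 11.51, 11.51, 11.65 and 11.52 in EZHi. All EZHi libraries were above all vehicle libraries, and vehicle replicate 3 came closest to EZHi replicate 2. The log2 fold change of 0.18 (SE 0.07) was not called (limma adjusted p 0.128). SERPINA7 was called higher with the replicate block (limma adjusted p 0.0116), with quantile normalization (0.0206) and with libraries centred on genes of at least 10 estimated FPKM (0.0303). SERPINA6 (corticosteroid-binding globulin) had log2 values from 4.05 to 6.87 in vehicle and from 3.86 to 5.30 in EZHi. Its log2 fold change of -0.29 (limma adjusted p 0.817) became 0.36 without vehicle replicate 2 (limma adjusted p 0.578), the library with the high value.

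Among clade B genes, SERPINB9 (ENSG00000170542, chromosome 6, 2887270 to 2903309, minus strand) encodes the inhibitor of granzyme B, which shields cells from cytotoxic lymphocytes. Its log2 values were 6.04, 5.93, 6.42 and 6.20 in vehicle, and 6.92, 6.76, 6.90 and 6.70 in EZHi. The groups did not overlap. SERPINB9 rose by 0.68 on the log2 scale (SE 0.12, limma adjusted p 0.00484), in 4 of 4 pairs, and the call was kept in 8 of 8 fits that left out single libraries, with values between 0.61 and 0.77. Its level remained modest, with 2.79 ± 0.42 (SD, n = 4) estimated FPKM under vehicle and 4.43 ± 0.32 (SD, n = 4) under EZHi. The neighbours of SERPINB9 on the short arm of chromosome 6 were higher in level and differed little between groups. SERPINB1, an inhibitor of neutrophil proteases, had log2 values of 11.35, 11.30, 11.57 and 11.44 in vehicle and 11.45, 11.40, 11.57 and 11.47 in EZHi, with overlapping groups. It changed by 0.05 with an interval from -0.11 to 0.22 (limma adjusted p 0.708), and SERPINB6 changed by 0.02 with an interval from -0.13 to 0.16 (limma adjusted p 0.905). With the block and either quantile normalization or centring, SERPINB1 was called higher, by 0.17 and 0.15 (limma adjusted p 0.0121 and 0.0233). SERPINB8, on chromosome 18, changed by -0.02 (limma adjusted p 0.973), and its exons overlap those of HMSD and of the antisense gene ENSG00000283667. SERPINB5 was below the filter in all libraries, with log2 values from -0.64 to -0.56.

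SERPINH1, the collagen chaperone HSP47 of the endoplasmic reticulum, changed by 0.03 with an interval from -0.28 to 0.35 (limma adjusted p 0.919). Its log2 values ran from 11.06 to 11.60 in vehicle and from 11.15 to 11.71 in EZHi. Under the block with quantile normalization, SERPINH1 was called higher, by 0.15, and SERPINI1 lower, by -0.24 (limma adjusted p 0.0244 and 0.035). SERPINE3 had log2 values from 1.01 to 1.29 in vehicle and from 1.22 to 1.41 in EZHi. It overlaps INTS6 on the opposite strand and was not tested.

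The secreted clades were set beside clade B. Of 15 secreted members, 2 were called higher and 0 lower (4 at an unadjusted p under 0.05), a share of 13.3% beside 13.1% of all genes. Of 4 clade B members tested, 1 was called higher and 0 lower (1 at an unadjusted p under 0.05). The median log2 fold change was 0.16 for the secreted clades and 0.04 for clade B, against -0.0077 over all genes tested. A positive value was found for 11 of 15 secreted members (73.3%) and 3 of 4 clade B members, against 48.0% of all genes. In the 4 replicate pairs the secreted median was 0.10, 0.24, 0.14 and 0.21, and the clade B median was 0.07, 0.11, -6e-05 and 0.06. The secreted median moved to 0.03 without EZHi replicate 3, to 0.06 without vehicle replicate 2 and to 0.24 without vehicle replicate 3. The clade B median moved to 0.07 without vehicle replicate 2. Under quantile normalization the medians were 0.16 and 0.15, so that the gap between the classes depended on this setting. With libraries centred on genes of at least 10 estimated FPKM they were 0.25 and 0.13. Centring moved the log2 fold change of every gene by 0.095, so that it left this gap unchanged. The median over all genes tested was 0.088 with centring and -0.060 under quantile normalization. Under the block, 6 secreted members were called higher and 1 lower, and 1 clade B member higher, where 14.9% of all genes were called higher and 15.1% lower. The 3 genes tested in clades E, H and I had a median of 0.03, with values from -0.23 to 0.59. This median was 0.07 when vehicle replicate 1 or EZHi replicate 4 was left out, 0.11 when vehicle replicate 2 was, 0.12 when EZHi replicate 3 was and 0.01 when EZHi replicate 1 was. It turned negative on leaving out vehicle replicate 3 (-0.04) or EZHi replicate 2 (-0.07).

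The spread between libraries of a group was described for each class. The median SD of the log2 value in vehicle was 0.43 over the secreted members and 0.17 over the clade B members tested, against 0.15 over all genes tested. Vehicle replicate 3 was the highest of its group for 11 of 15 secreted members, and EZHi replicate 3 for 12 of 15. Over all genes tested the corresponding shares were 32.3% and 31.8%. Both libraries numbered 3 were also the highest of their group for 8 of 9 hepatocyte markers. Within pairs, the differences of the secreted members had a median SD of 0.18. What sets the libraries numbered 3 apart was not tested. Leaving out both (an alternative chosen after seeing the data) gave 4 members called without the block and 7 with it (6 higher and 1 lower), where 11.2% and 21.1% of all genes were called, and a secreted median of 0.19. SERPINE2 was then not called without the block (limma adjusted p 0.104), while SERPINA9 was called lower (0.0382).

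**Figure D4:**
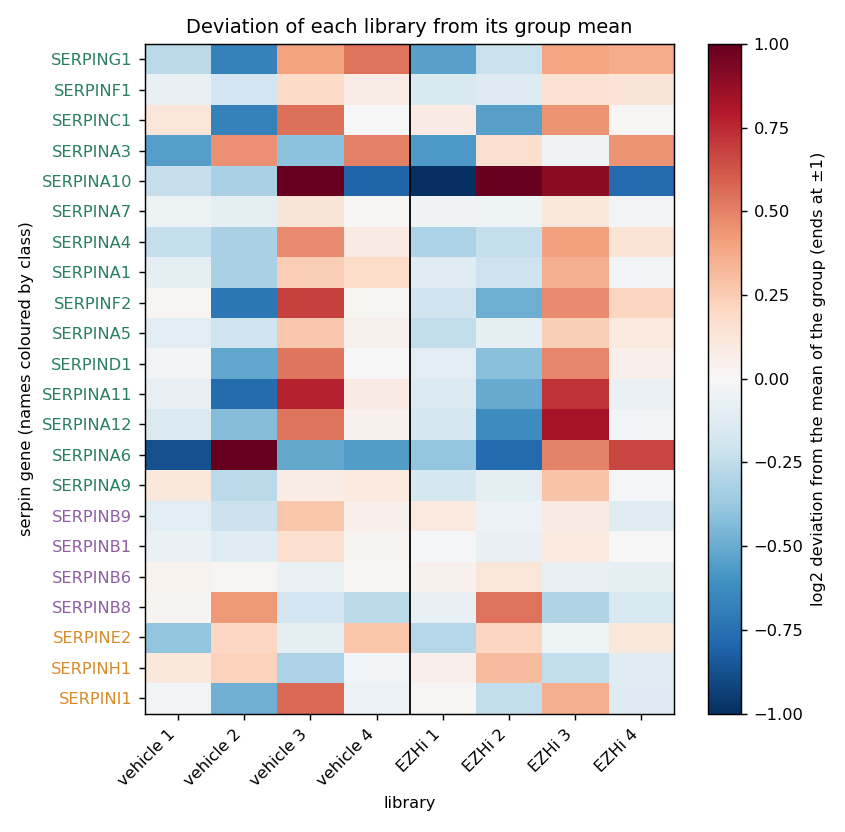
Deviation of each library from the mean of its group (log2 units, colour scale ending at ±1) for the 22 serpin genes tested, with vehicle libraries on the left and EZHi libraries on the right. Libraries numbered 3 were the highest for 11 of 15 secreted genes in vehicle and for 12 of 15 in EZHi.

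Promoter sequences, which the choice of members did not use, were compared next. RefSeq promoter windows (GRCh38.p14, 250 bases before to 50 after a start) were found for 20 of the 24 members, with 30 windows in all since several genes have alternative and partly overlapping windows. SERPINC1, SERPINF1, SERPINF2 and SERPING1 had no entry. A window was counted as CpG-rich with more than 50% G and C and a ratio of observed to expected CpG above 0.6, which held for 46.8% of 35116 windows of all genes. None of the 15 windows of 11 secreted genes was CpG-rich, against 6 of 8 windows for clade B, which belonged to SERPINB1, SERPINB5, SERPINB6 and SERPINB9. SERPINE2 and SERPINH1 also had CpG-rich windows. The median ratio was 0.21 for the secreted genes, 0.83 for clade B and 0.58 over all genes. The called genes SERPINB9 and SERPINE2 are shown to display CpG-rich windows, as is SERPINB6, which was not called. SERPINA1 and SERPINA11 are shown to display windows poor in CpG. Where a gene has several windows, that with the highest ratio is shown. SERPINE2 and SERPINB6 also have windows that were not CpG-rich, with ratios of 0.39 and 0.42. CG dinucleotides are in capitals.
SERPINB9 chr6:2903260-2903559, minus strand, 5′ to 3′: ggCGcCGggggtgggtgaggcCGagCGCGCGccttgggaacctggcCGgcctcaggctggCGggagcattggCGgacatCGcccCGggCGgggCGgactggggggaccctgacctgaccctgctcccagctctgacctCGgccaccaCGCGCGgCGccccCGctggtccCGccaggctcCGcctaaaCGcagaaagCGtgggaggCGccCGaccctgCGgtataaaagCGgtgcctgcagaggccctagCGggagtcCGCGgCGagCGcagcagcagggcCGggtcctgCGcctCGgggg
SERPINE2 chr2:224038591-224038890, minus strand, 5′ to 3′: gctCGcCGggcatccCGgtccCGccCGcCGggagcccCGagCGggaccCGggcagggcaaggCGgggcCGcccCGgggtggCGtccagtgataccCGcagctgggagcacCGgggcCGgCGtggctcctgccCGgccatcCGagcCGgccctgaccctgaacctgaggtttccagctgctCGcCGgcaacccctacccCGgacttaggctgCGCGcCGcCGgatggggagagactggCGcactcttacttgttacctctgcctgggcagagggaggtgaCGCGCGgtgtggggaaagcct
SERPINB6 chr6:2971227-2971526, minus strand, 5′ to 3′: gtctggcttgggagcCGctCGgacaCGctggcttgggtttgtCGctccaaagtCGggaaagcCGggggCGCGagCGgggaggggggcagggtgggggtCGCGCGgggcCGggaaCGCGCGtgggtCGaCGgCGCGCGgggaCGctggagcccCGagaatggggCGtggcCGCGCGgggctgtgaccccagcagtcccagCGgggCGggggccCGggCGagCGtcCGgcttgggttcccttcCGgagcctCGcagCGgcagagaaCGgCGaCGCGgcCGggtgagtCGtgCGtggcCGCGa
SERPINA1 chr14:94388553-94388852, minus strand, 5′ to 3′: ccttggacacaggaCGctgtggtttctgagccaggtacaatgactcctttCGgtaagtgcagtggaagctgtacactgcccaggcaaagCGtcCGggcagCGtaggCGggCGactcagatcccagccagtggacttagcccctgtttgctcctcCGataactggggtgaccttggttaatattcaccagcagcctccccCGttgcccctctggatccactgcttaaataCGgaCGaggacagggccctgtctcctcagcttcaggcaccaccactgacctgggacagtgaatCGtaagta
SERPINA11 chr14:94452751-94453050, minus strand, 5′ to 3′: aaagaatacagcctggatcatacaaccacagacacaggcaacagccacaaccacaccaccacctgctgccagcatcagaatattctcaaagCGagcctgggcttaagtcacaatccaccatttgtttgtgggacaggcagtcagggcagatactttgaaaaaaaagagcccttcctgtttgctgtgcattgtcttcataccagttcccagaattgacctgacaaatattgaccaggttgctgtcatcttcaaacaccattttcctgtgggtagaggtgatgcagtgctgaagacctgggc

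These windows held 35, 31, 45, 12 and 1 CG dinucleotides in the order shown. SERPINB9 and SERPINB6 lie close together on chromosome 6 and both have CpG-rich windows, yet the former was called higher and the latter was not, so that CpG-rich windows occurred with and without a call.

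**Figure D5:**
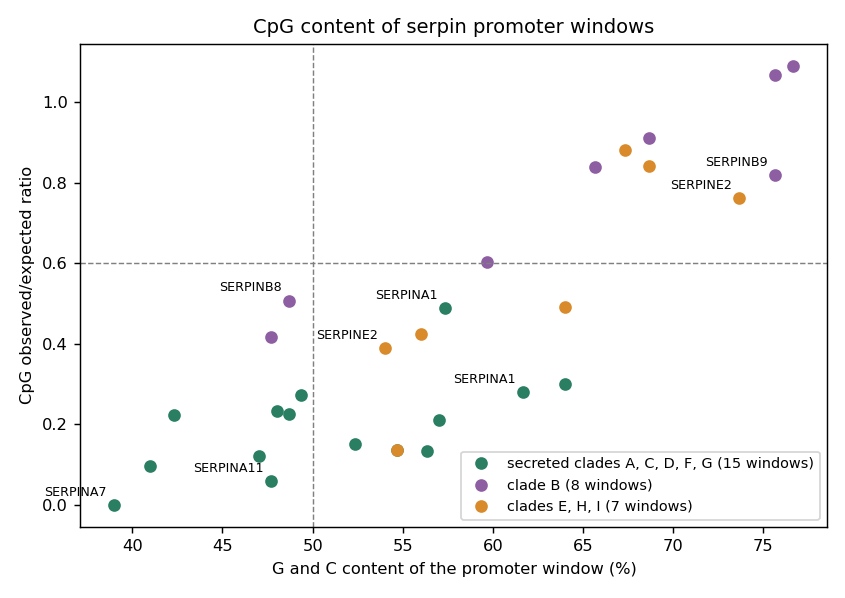
Ratio of observed to expected CpG against G and C content (%) for 30 promoter windows of 20 serpin genes, coloured by class, with dashed lines at 0.6 and 50%. All 15 secreted windows lie below the line at 0.6, whereas 6 of 8 clade B windows lie above it.

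Motifs were then searched on both strands of the windows. GTTAAT, searched with its reverse complement, is the arm of the palindrome bound by the hepatocyte factor HNF1. It was found in 5 of 15 secreted windows (33.3%) and in 0 of 8 clade B windows, against 6.88% of all windows. The genes were SERPINA1, SERPINA10, SERPINA4, SERPINA6 and SERPINA7. GTTAAT is poor in G and C. Median G and C content was 49.3% in secreted windows, 67.2% in clade B windows and 58.7% over all windows. Whether base content has a part in the motif shares was not tested. The full palindromic HNF1 site, which contains the shorter motif, was found in 0 serpin windows and in 2 windows of all genes. TATAAA was found in 5 of 30 serpin windows (16.7%), against 11.5% of all windows. By class these were 2 of 15 secreted windows (13.3%), 3 of 8 clade B windows (37.5%) and 0 of 7 windows of clades E, H and I. The windows of the hormone carriers are shown because they hold the most matches to GTTAAT, which are in capitals.
SERPINA6 chr14:94323287-94323586, minus strand, 5′ to 3′: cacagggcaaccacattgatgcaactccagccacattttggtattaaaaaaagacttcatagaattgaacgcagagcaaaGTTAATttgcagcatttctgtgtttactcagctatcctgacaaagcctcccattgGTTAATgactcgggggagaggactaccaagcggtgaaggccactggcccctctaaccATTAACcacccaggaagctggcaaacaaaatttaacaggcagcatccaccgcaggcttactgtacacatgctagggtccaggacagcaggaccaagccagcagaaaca
SERPINA7 chrX:106038678-106038977, minus strand, 5′ to 3′: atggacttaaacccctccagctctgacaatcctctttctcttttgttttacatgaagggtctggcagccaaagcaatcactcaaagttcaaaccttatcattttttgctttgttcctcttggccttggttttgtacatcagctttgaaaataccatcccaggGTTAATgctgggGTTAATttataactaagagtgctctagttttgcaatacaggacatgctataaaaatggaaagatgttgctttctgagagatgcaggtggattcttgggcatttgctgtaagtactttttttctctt

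The transcription factors known to act on liver serpin genes were examined as a last list. Of 10 genes tested, FOXA1 was called lower and none was called higher (1 of 10, beside 13.1% of all genes). FOXA1 had a mean log2 value of 11.36 ± 0.04 (SD, n = 4) under vehicle and 11.11 ± 0.03 (SD, n = 4) under EZHi (limma adjusted p 0.0125). This call was lost with quantile normalization and with centring on genes of at least 10 estimated FPKM. Under the block, where 30.0% of all genes were called, FOXA2, CEBPB, STAT3 and ONECUT1 were higher and FOXA1 was lower.

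A further 10 protein-coding family members in the annotation were not analysed here. They were SERPINA2, SERPINI2 and 8 clade B genes (SERPINB2, SERPINB3, SERPINB4, SERPINB7, SERPINB10, SERPINB11, SERPINB12 and SERPINB13), all 8 within the chromosome 18 cluster that also holds SERPINB5 and SERPINB8. The description of clade B therefore rests mainly on the genes of chromosome 6.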

How the data were processed

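RNA-seq was performed on mRNA libraries of HepG2 cells, sequenced as paired reads of 150 bp. Per the methods of the study and the submitters' processing notes, HISAT2 served for mapping to hg38 and HTSeq 0.9.1 for unstranded counting of exonic reads. The authors removed genes with fewer than 10 reads over all samples, applied the regularized log of DESeq2 and corrected for mean transcript length. The values deposited by the authors span -6.81 to 19.01 and were read as log2, although the table is named as FPKM. The regularized log shrinks differences of low genes, and reads shared by overlapping genes could be lost or misassigned. Depth is unknown, so that no counting interval is given.

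The table held 25604 rows, 1 of them repeated, with no symbol for 5614 genes. Groups and replicate numbers came from sample titles. Coordinates and lengths came from GENCODE release 44 (25594 genes matched). Values multiplied back by length on a linear scale had comparable sums in all libraries (24.4 to 27.3 after scaling as in FPKM), and dividing by the mean of these sums, 25.6, gave estimated FPKM. Annotated short transcripts raise this level for genes such as SERPINF1. Limma 3.58.1 (R 4.3.3; lmFit and eBayes with trend, without covariates) was fitted to all genes averaging 0.1 estimated FPKM or more, after being tested on simulated data. Adjusted p-values cover all 20153 genes tested. Deviations from group means correlated between libraries of equal number with r from 0.22 to 0.63 across genes, so that the numbers were taken to pair the libraries. The highest r between unequal numbers was 0.20, close to the 0.22 of replicate 4. Python 3.11.15 with pandas 2.3.3 and matplotlib 3.10.9 was used for summaries.

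Members, gene lists and tests were chosen with earlier results of these data known. Each gene described is named, and 1 further gene that met the rule is not reported here and is left out of all counts over members, though it stayed in the fit. Values of all libraries are given for members called in either fit or among the 6 highest in level, and from the protease and transcription factor lists at most 6 called genes with the largest changes, unless stated. Alternatives comprised filters, pseudocounts, scalings, the replicate block and leaving out libraries. Protein sequences were not analysed here.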

Additional observations from a re-analysis of the deposited data

Results flagged for a closer look

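In groups of 4 libraries, the gap of an extreme library to its nearest neighbour was divided by the range of the group and compared with the 95% critical value of Dixon. Of 48 groups of serpin values, 4 exceeded it, where chance gives about 2.4. Vehicle replicate 2 stood apart for SERPINA6, at 6.87 against 4.05 to 4.41 (0.871 of the range), and for SERPINA9, at 2.11 against 2.45 to 2.49 (0.912 of the range). EZHi replicate 3 stood apart for SERPINA7, at 11.65 against 11.51 to 11.52 (0.926 of the range). The same library stood apart for SERPINB5, at -0.64 against -0.56 (0.995 of the range), in a gene below the filter whose vehicle libraries were also at -0.64.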

How the results depend on the processing

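The number of serpin genes called was 4, and 9 with the replicate block. It was 7 with the block and both libraries numbered 3 left out, 12 with the block and centring on genes of at least 10 estimated FPKM, and 13 with the block and quantile normalization (these 3 alternatives were chosen after seeing the data). The shares of all genes called were 13.1%, 30.0%, 21.1%, 29.4% and 27.8% in the same order. With quantile normalization alone, 6 serpin genes were called (5 higher and 1 lower) and the share of all genes was 10.8%. With centring alone, 5 were called (5 higher and 0 lower) and the share was 14.2%. The block with centring called 4549 genes higher and 1368 lower, and the block with quantile normalization 2769 higher and 2824 lower. The number of serpin genes ranged from 2 to 4 when single libraries were left out, where 8.99% to 12.8% of all genes were called. For proteases and partners it was 3, against 5 with quantile normalization, 7 with centring, 13 with the replicate block, and 9, 14 and 12 with the 3 combined settings in the same order. For transcription factors it was 1, against 0 with quantile normalization and with centring, 5 with the block, and 2, 5 and 7 with the combined settings. Centring moved the median over all genes tested from -0.0077 to 0.088, and quantile normalization moved it to -0.060, with or without the block. The medians of the classes are to be read beside these. The secreted median of 0.16 became 0.25 with centring, with or without the block, and ranged from 0.031 to 0.24 when single libraries were left out. The clade B median of 0.04 became 0.13 with centring and 0.15 with quantile normalization, with or without the block. The median of clades E, H and I, 0.033, became 0.14 without a filter, which adds SERPINE3, and 0.15 with quantile normalization and 0.13 with centring, with or without the block. It ranged from -0.072 to 0.12 when single libraries were left out.

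SERPING1 and SERPINB9 kept their calls in all alternatives run. The block added the calls given beside SERPINA3, SERPINA4, SERPINA7, SERPINA9 and SERPINC1 and changed no other serpin call. Members that were not called changed sign in some. SERPINA11 was at 0.094 with quantile normalization and 0.069 with centring, and SERPINB8 at 0.077 with centring and 0.019 without the libraries numbered 3, each with or without the block. Centring adds 0.095 to the log2 fold change of every gene, which gives the changes of sign with centring. The cause of the other changes of sign was not tested. Leaving out single libraries gave ranges of -0.056 to 0.75 for SERPINA10, -0.28 to 0.23 for SERPINA11, -0.43 to 0.059 for SERPINA12, -0.58 to 0.36 for SERPINA6, -0.022 to 0.048 for SERPINB6, -0.20 to 0.13 for SERPINB8, -0.15 to 0.20 for SERPIND1, -0.093 to 0.38 for SERPINF2 and -0.072 to 0.12 for SERPINH1. Depth is unknown, and shrinkage limits what low genes can show.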
